A study of Mus musculus with 4 samples.

Results

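The synaptic vesicle release machinery, the proteins that dock vesicles at the nerve ending, prime them and fuse them with the plasma membrane, was measured at the RNA level in mouse dorsal root ganglia, which hold the cell bodies of the sensory neurons of the trunk and limbs. Members were all genes of the deposited whole-genome table whose symbol belongs to the synaptotagmin (Syt), synapsin (Syn), SNAP, VAMP, syntaxin (Stx), syntaxin-binding (Stxbp), complexin (Cplx), SV2, Rab3, Rims or Unc13 families, together with Syp and Nsf. This name rule, which uses no measured value, gave 81 of 14405 genes. The match on Rab3 also took in 12 genes numbered Rab30 to Rab39b, which are other members of the Rab family and not Rab3 isoforms. Snap91, also matched, encodes AP180, an adaptor of clathrin-coated vesicles, and not a SNAP protein of the SNARE family.

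The samples were 2 mutant and 2 wild type ganglion samples, from mice aged 10 weeks of a mixed strain. The mutants had the genotype Prdm12-/Fl; AvilCreERT2/+, that is, a null and a floxed allele of the transcription factor gene Prdm12 and 1 copy of a tamoxifen-inducible Cre recombinase under the control of Avil, a gene of sensory neurons. The wild types are labelled only as such, and the sources used here give neither their Cre status nor a tamoxifen schedule. In the mutants 1 Prdm12 allele was null in every cell, while the floxed allele could be lost only in cells with active Cre. The series' title sets loss of Prdm12 in development against loss in mature pain-sensing neurons, and the comparison here asks whether the genes of transmitter release differed between mutant and wild type ganglia. Values are FPKM, that is, read fragments scaled to transcript length and library size, so that levels can be compared between genes. Sequencing depth is unknown, and FPKM over all genes summed to between 620018 and 686830 per library. Prdm12 itself stood at 1.05 and 1.495 FPKM in the mutants, against 7.58 and 10.7 FPKM in wild types, a log2 difference of -2.14 that did not pass in limma (adjusted p = 0.180) and has q = 0.00742 in the authors' deposited table. All 20 pan-neuronal and all 13 sensory neuron markers of 2 chosen lists were present above 0 in every library. RNA of other tissues was present too and is described beside the results that it moves with.

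Vesicle fusion is driven by SNARE proteins. On the vesicle sits a VAMP protein, and on the plasma membrane a syntaxin and SNAP25, and their zippering pulls the membranes together. SM proteins, Munc13 (Unc13), RIM and Rab3 proteins prepare the vesicle, complexins and synaptotagmins tie fusion to calcium, and NSF takes the spent SNARE complex apart. Sensory neurons use this machinery to release glutamate and, with related isoforms, neuropeptides, both from their endings in the spinal cord and from those in skin and viscera. The transcripts measured here lie in the cell bodies, while most of the proteins act in the endings. Many family members, such as SNAP23, VAMP3, VAMP8 and syntaxins 4 to 18, serve general membrane traffic in all cell types of the ganglion, including glia, blood cells and fibroblasts.

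The promoters of 65 of the 81 members, at 84 start sites, were matched in RefSeq (build GRCm38.p6), each running from 250 bases before to 50 after the start. Shown are those of 3 neuronal members whose levels moved together across the libraries (Syn1, Syp and Cplx1) and that of Snap23, a broadly expressed paralog of Snap25 that ran the opposite way. Capitals mark any of 6 short motifs searched on both strands: GGGCGG (GC box), TATAAA (the core promoter box rich in A and T), TGACGTCA (cAMP response element), CAGCTG (E box), TTCAGCACC (left part of the RE1 element bound by the repressor REST) and the NRF1 palindrome. These motifs were chosen after counts of these and other spellings had been seen.
Syn1, chrX:20920869-20921168, minus strand: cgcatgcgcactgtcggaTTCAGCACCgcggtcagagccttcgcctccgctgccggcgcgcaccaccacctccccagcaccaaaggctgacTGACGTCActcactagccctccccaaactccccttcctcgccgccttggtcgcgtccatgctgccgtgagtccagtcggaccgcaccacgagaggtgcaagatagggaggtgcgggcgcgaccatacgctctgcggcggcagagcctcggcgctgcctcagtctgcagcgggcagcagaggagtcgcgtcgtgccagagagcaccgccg
Syp, chrX:7638330-7638629, plus strand: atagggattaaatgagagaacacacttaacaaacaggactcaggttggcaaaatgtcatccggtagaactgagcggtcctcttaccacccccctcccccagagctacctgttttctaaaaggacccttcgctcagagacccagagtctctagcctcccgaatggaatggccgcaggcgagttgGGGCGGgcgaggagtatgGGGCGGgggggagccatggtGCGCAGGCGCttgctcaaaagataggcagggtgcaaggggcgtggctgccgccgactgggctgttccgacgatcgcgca
Cplx1, chr5:108549978-108550277, minus strand: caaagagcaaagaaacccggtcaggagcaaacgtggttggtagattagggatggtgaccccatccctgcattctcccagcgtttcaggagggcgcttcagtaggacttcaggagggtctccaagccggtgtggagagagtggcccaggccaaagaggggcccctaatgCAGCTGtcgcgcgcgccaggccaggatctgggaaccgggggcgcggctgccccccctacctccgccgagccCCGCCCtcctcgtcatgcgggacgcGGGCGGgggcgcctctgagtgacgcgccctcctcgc
Snap23, chr2:120567421-120567720, plus strand: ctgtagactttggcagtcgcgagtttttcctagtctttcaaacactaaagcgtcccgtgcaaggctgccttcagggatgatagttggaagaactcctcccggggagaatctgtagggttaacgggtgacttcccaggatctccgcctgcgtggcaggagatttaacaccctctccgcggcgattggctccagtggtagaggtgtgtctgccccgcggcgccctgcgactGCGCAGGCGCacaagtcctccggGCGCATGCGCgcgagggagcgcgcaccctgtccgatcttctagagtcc

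A GC box lay in 58 of the 84 member windows (69%), against 35.7% of all 32851 windows in the table. The box rich in A and T was in 6 (7.14%, against 13.6%), the E box in 20 (23.8%, against 16.3%) and the NRF1 palindrome in 11 (13.1%, against 4.6%). The RE1 part lay in the windows of Syn1 and Unc13a and the cAMP response element in those of Syn1 and Stxbp3, against 0.371% and 1.79% of all windows. These matches describe the letters of the windows and say nothing of factor binding.

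None of the release machinery genes differed between mutant and wild type ganglia past the threshold. Members entered the test if the average of at least 1 of the groups reached 1 FPKM. Of the 79 that did, 0 passed an adjusted p of 0.05 in limma, where 0 of 14040 genes (0%) passed, Prdm12 included. At an unadjusted p under 0.05 there were 1 member higher and 1 lower in the mutants, Syt16 and Syt12, against 1.35% of all genes higher and 3.01% lower. Both mutants lay above both wild types for 9 members and below them for 11, where this held for 12.5% and 19.6% of all genes tested. For the other 59 the groups overlapped. The median log2 difference, mutant minus wild type on log2(FPKM + 1), was 0.03 over the members and -0.0048 over all genes, and single members ran from -0.73 (Syt12) to 0.69 (Syt2). The 95% interval of the difference lay between -1 and 1 for 66 of the 79 members, so that for these a change beyond 2-fold on this scale was outside the interval. The other 13 (among them Cplx1, Cplx2, Rab3c, Rims3, Sv2c, Syn1, Syt1, Syt2, Syt3, Syt6, Syt11 and Syt12) had wider or more distant intervals. Stxbp5l and Syt15 were under 1 FPKM in both groups and were not tested, and Rims1 and Syt16 passed the minimum through their level in the mutants alone. The authors' deposited table of 150 differing genes holds 0 members, but by its title it is cut at a log2 fold change of 1 and an FDR of 0.05. The mutant over wild type ratio of group means ran from 0.536 to 1.82 over the tested members. The 2-fold cut alone therefore kept them out, and their absence is no separate evidence.

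**Figure D1:**
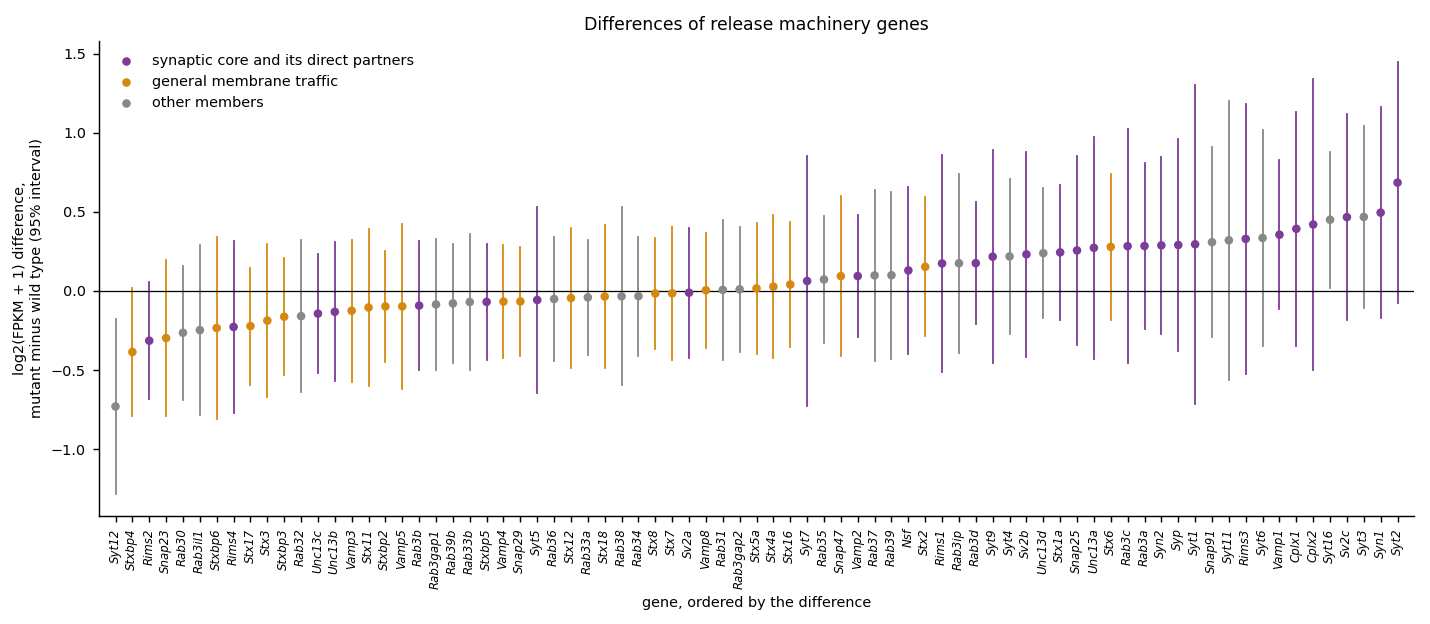
Log2(FPKM + 1) difference, mutant minus wild type, of 77 of the 79 tested members with its 95% interval from limma, ordered from lowest to highest and coloured by list. The interval holds 0 for 75 of those plotted, and the 2 exceptions, Syt12 and Syt16, did not pass after adjustment.

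Members of the synaptic core and those of general membrane traffic form 2 lists. These were drawn up with earlier results of these data known, so the contrast between them is described and is not an independent test. The 32 tested genes of the synaptic core and its direct partners had a median log2 difference of 0.25, with 24 values above 0 and 8 below. In 5 of them both mutants were above both wild types, and in 3 below, where all genes had shares of 12.5% and 19.6%. The 23 tested SNAREs and SM proteins of general membrane traffic had a median of -0.07, with 7 values above 0 and 16 below, 1 without overlap above and 6 below, beside the same shares of all genes. None of the genes in either list passed in limma. Without mutant 2 the median of the synaptic core was -0.03, and without wild type 1 it was 0.06, while without mutant 1 it was 0.51 and without wild type 2 it was 0.41. The median of general traffic stayed between -0.11 and -0.03 with any library left out.

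The plasma membrane SNARE Snap25 was the most abundant member. It stood at 294 and 416 FPKM in mutants, against 259.6 and 330.4 FPKM in wild types (chromosome 2, 136713453 to 136782428, mm10), and averaged 355 ± 86.2 and 295 ± 50.1 FPKM (SD, n = 2 each). Mutant 2 was highest and wild type 1 lowest, mutant 1 lay between the wild types, and the log2 difference was 0.26 (SE 0.238, limma adjusted p = 0.994). It was 0.0073 without mutant 2 and 0.51 without mutant 1. Its broadly expressed paralog Snap23 stood at 13.1 and 9.48 FPKM in mutants, against 14.9 and 13.0 FPKM in wild types (log2 difference -0.30). For Snap23 the order of the libraries was the reverse, with mutant 2 lowest and wild type 1 highest. Snap47, a SNAP relative on intracellular membranes, stood at 64.0 and 84.7 FPKM in mutants and at 63.4 and 74.9 FPKM in wild types. Snap91 (AP180) stood at 20.8 and 30.2 FPKM in mutants and at 17.5 and 23.0 FPKM in wild types, again with overlapping groups. Snap29, at 10.3 and 10.9 FPKM in mutants and 10.99 and 11.3 FPKM in wild types, was lower in both mutants by a log2 difference of only -0.07.

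Stx1a, which encodes a partner of Snap25 at synapses, stood at 9.77 and 12.6 FPKM in mutants, against 9.01 and 9.42 FPKM in wild types (log2 difference 0.24). Both mutants lay above both wild types. The most abundant syntaxins were those of endosomes and the general cell surface. Stx7, of late endosomes, stood at 71.0 and 73.4 FPKM in mutants and at 66.1 and 80.5 FPKM in wild types. Stx12, of recycling endosomes, stood at 64.1 and 76.9 FPKM in mutants and 67.4 and 77.9 FPKM in wild types. Stx4a, of the plasma membrane, stood at 36.9 and 46.4 FPKM in mutants and 38.2 and 43.0 FPKM in wild types. Their log2 differences were between -0.04 and 0.03. Over the 14 syntaxins 7 differences were above 0 and 7 below, with a median of 0.00080.

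Among vesicle SNAREs, Vamp2 (synaptobrevin 2), the main one of central synapses, differed little between libraries. It stood at 152 and 145 FPKM in mutants, against 145 and 133 FPKM in wild types (chromosome 11, 69088490 to 69092384), with a log2 difference of 0.09 and a 95% interval from -0.29 to 0.48. Vamp1 (synaptobrevin 1), the form that predominates at the neuromuscular junction and in many hindbrain and spinal neurons, stood at 91.9 and 121 FPKM in mutants, against 82.0 and 82.1 FPKM in wild types. Both mutants lay above both wild types, by a log2 difference of 0.36 (SE 0.187, limma adjusted p = 0.994), and the difference was 0.16 without mutant 2 and 0.55 without mutant 1. Vamp8, of endosomes and secretory granules in non-neuronal cells, differed least, at 77.7 and 75.6 FPKM in mutants and 76.7 and 76.1 FPKM in wild types. Vamp3, the broadly expressed cellubrevin, stood at 51.7 and 48.8 FPKM in mutants and at 62.0 and 48.5 FPKM in wild types. Nsf, the ATPase that separates used SNARE complexes, stood at 50.1 and 66.3 FPKM in mutants and at 46.9 and 58.9 FPKM in wild types.

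**Figure D2:**
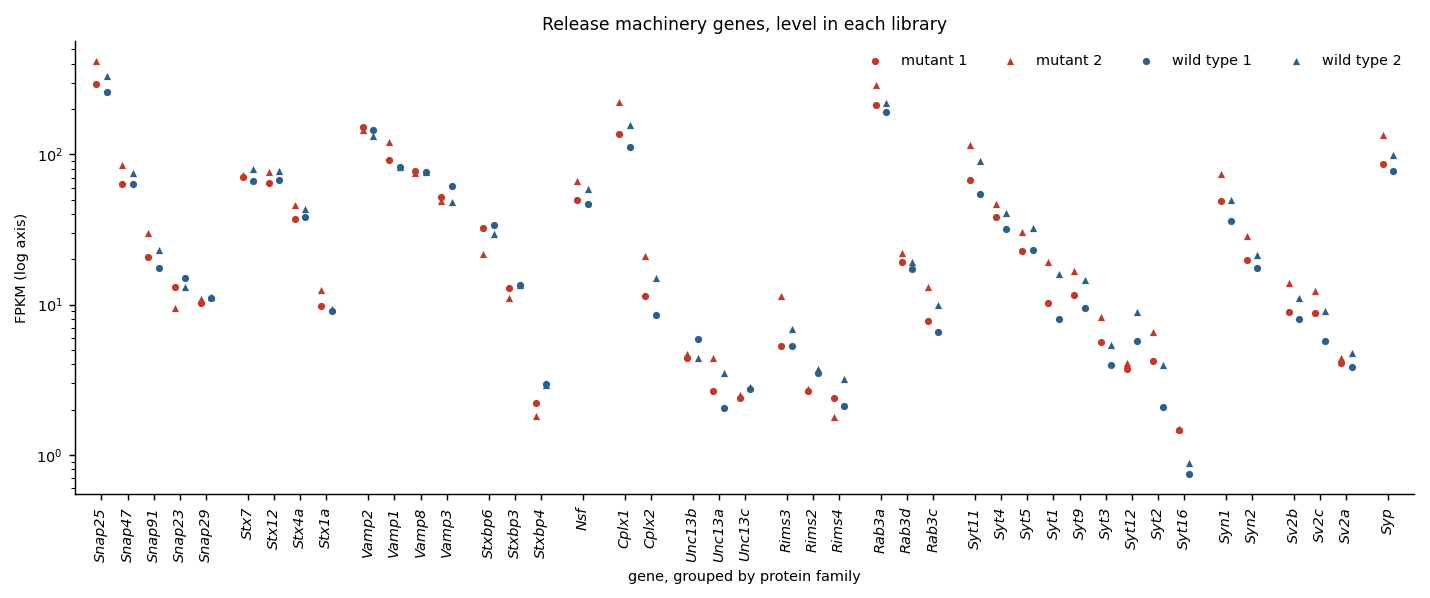
FPKM on a log axis for the members described with values in every library, grouped by protein family; red marks are the 2 mutants, blue marks the 2 wild types, circles library 1 and triangles library 2 of each group. Snap25 is the highest at 259.6 to 416 FPKM, and for Snap25, Cplx1, Syp and Syn1 the triangles lie above the circles in both groups.

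Of the 6 tested syntaxin-binding genes 1 had a difference above 0 and 5 below. Stxbp6 (amisyn) stood at 32.6 and 21.6 FPKM in mutants and at 33.6 and 29.4 FPKM in wild types, with overlapping groups and mutant 2 lowest. Stxbp3 (Munc18c), the partner of syntaxin 4, stood at 12.8 and 11.1 FPKM in mutants, against 13.5 and 13.5 FPKM in wild types (log2 difference -0.16). Stxbp4 was the member with the most negative difference after Syt12, at 2.22 and 1.82 FPKM in mutants, against 2.96 and 2.90 FPKM in wild types (log2 difference -0.39, SE 0.161, limma adjusted p = 0.994). In all, 4 of the 6 tested genes of this family had both mutants below both wild types, namely Stxbp2, Stxbp3, Stxbp4 and Stxbp5, where this held for 19.6% of all genes.

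The complexins clamp and then support calcium-triggered fusion. Cplx1 stood at 137 and 223 FPKM in mutants, against 113 and 156 FPKM in wild types, or 179.7 ± 60.9 and 134 ± 30.6 FPKM (SD, n = 2 each). Cplx2 stood at 11.4 and 21.2 FPKM in mutants, against 8.56 and 15.1 FPKM in wild types. Both had the same order of libraries, with mutant 2 highest, then wild type 2, mutant 1 and wild type 1. The log2 differences were 0.39 and 0.42 (limma adjusted p = 0.994 for each). On the same scale the gaps within mutants and within wild types were larger, at 0.70 and 0.47 for Cplx1 and 0.83 and 0.75 for Cplx2. With each library left out the difference ran from 0.043 to 0.74 for Cplx1 and from 0.0029 to 0.84 for Cplx2, lowest without mutant 2 and highest without mutant 1.

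Among the priming and docking factors, the Munc13 and RIM genes were expressed at far lower levels than the most abundant SNAREs. Of the Munc13 genes, Unc13b stood at 4.42 and 4.72 FPKM in mutants and at 5.88 and 4.41 FPKM in wild types. Unc13a, the main form at central excitatory synapses, stood at 2.68 and 4.40 FPKM in mutants and at 2.04 and 3.48 FPKM in wild types, and it shares up to 495 exon bases with Colgalt1 on the opposite strand. Unc13c stood at 2.39 and 2.48 FPKM in mutants, against 2.74 and 2.84 FPKM in wild types, lower in both mutants by a log2 difference of -0.14. Of the RIM scaffolds of the active zone, Rims3, which encodes a short form, stood at 5.32 and 11.4 FPKM in mutants and 5.29 and 6.90 FPKM in wild types, so that mutant 2 stood apart from the other 3 libraries. Rims2, with the long form that binds Rab3, stood at 2.66 and 2.76 FPKM in mutants, against 3.52 and 3.71 FPKM in wild types. Its libraries differed little within groups, both mutants were lower, and the log2 difference was -0.31 (SE 0.147, unadjusted p = 0.0809 and adjusted p = 0.994 in limma). It kept its sign with any library left out, from -0.34 to -0.28. Rims4 stood at 2.40 and 1.798 FPKM in mutants and at 2.12 and 3.18 FPKM in wild types, with overlap.

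Rab3 GTPases mark vesicles and recruit RIM. Rab3a, the main vesicle Rab of neurons and the member with the highest level after Snap25, stood at 214 and 291 FPKM in mutants, against 191 and 220.0 FPKM in wild types (log2 difference 0.28, 95% interval -0.24 to 0.81). Rab3d stood at 19.4 and 22.0 FPKM in mutants, against 17.2 and 19.1 FPKM in wild types, a small difference without overlap (0.18). Rab3c stood at 7.79 and 13.0 FPKM in mutants and at 6.56 and 10.0 FPKM in wild types. The 4 regulators Rab3gap1, Rab3gap2, Rab3ip and Rab3il1 lay between 8.04 and 24.4 FPKM in mutants and between 8.15 and 29.5 FPKM in wild types, and their groups overlapped in each case. Rab3gap2 shares 2034 exon bases with Iars2 on the opposite strand. The 12 Rab genes matched by name only had a median log2 difference of -0.04, with a range from -0.26 to 0.10.

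Synaptotagmins hold both members with an unadjusted p under 0.05. Syt12, which lacks the residues for calcium binding, stood at 3.75 and 4.07 FPKM in mutants, against 5.70 and 8.90 FPKM in wild types, or 3.91 ± 0.226 and 7.30 ± 2.26 FPKM (SD, n = 2 each). The mutants agreed closely and the wild types differed from each other, and the mean of the mutants was 0.536 of that of the wild types. The log2 difference was -0.73 (SE 0.221, 95% interval -1.28 to -0.18), with an unadjusted p of 0.0189 and an adjusted p of 0.945 in limma. It ran from -1.01 to -0.45 with each library left out. Syt12 lies on chromosome 19 at 4445908 to 4477447. Syt16, another form without calcium-binding residues, stood at 1.47 and 1.48 FPKM in mutants, against 0.749 and 0.877 FPKM in wild types (log2 difference 0.45, SE 0.171, unadjusted p = 0.0425 and adjusted p = 0.994 in limma). It was close to the minimum level and passed the filter only through the mutants.

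The fast calcium sensors of release are synaptotagmins 1, 2 and 9. Syt1, the sensor of most forebrain synapses, stood at 10.3 and 19.3 FPKM in mutants and at 7.995 and 15.9 FPKM in wild types, so that libraries of 1 group differed more than the groups. Syt2, the sensor of hindbrain, spinal and neuromuscular synapses, stood at 4.21 and 6.61 FPKM in mutants, against 2.08 and 3.98 FPKM in wild types. Both mutants lay above both wild types by a log2 difference of 0.69 (SE 0.303, unadjusted p = 0.069 and adjusted p = 0.994 in limma), the highest of any member. Its difference was 0.34 without wild type 1 and 1.03 without wild type 2. Syt9 stood at 11.5 and 16.7 FPKM in mutants and at 9.47 and 14.7 FPKM in wild types. The ratio of Syt1 to Syt2, which does not depend on library scaling, was 2.44 and 2.93 in mutants, against 3.85 and 4.0002 in wild types. It was 1 of 8 ratios between members that were computed, of which 1 was lower and 2 higher in both mutants, and an exact permutation test of 2 against 2 cannot give a p below 0.333.

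The most abundant synaptotagmins were not among the fast sensors named above. Syt11, which does not bind calcium, stood at 67.4 and 115 FPKM in mutants and at 54.5 and 91.0 FPKM in wild types. Syt4, found on peptide-containing vesicles, stood at 38.0 and 46.8 FPKM in mutants and at 32.1 and 40.7 FPKM in wild types. Syt5, classed with the calcium-sensing forms, stood at 22.7 and 30.2 FPKM in mutants and at 23.0 and 32.4 FPKM in wild types. Its log2 difference was -0.06. In each of these 3 genes library 2 of either group was above library 1 of both groups. Syt3 was above the wild types in both mutants, at 5.61 and 8.22 FPKM in mutants, against 3.95 and 5.42 FPKM in wild types (log2 difference 0.47).

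The vesicle proteins proper, apart from Sv2a, showed the order of libraries given for the complexins. Syp (synaptophysin), an abundant membrane protein of small vesicles, stood at 85.8 and 135 FPKM in mutants and at 77.6 and 99.3 FPKM in wild types. Syn1, which encodes synapsin I and holds vesicles in the reserve pool, stood at 48.8 and 73.7 FPKM in mutants, against 36.0 and 49.6 FPKM in wild types, a log2 difference of 0.50 (SE 0.266, limma adjusted p = 0.994). Mutant 1 lay just under wild type 2, and the difference was 0.20 without mutant 2 and 0.79 without mutant 1. Syn2 stood at 19.7 and 28.5 FPKM in mutants and at 17.4 and 21.3 FPKM in wild types, and shares up to 90 exon bases with Timp4 on the opposite strand. Of the SV2 glycoproteins, which are the receptors of botulinum neurotoxin A, Sv2b stood at 8.996 and 14.02 FPKM in mutants and at 7.996 and 11.1 FPKM in wild types. Sv2c stood at 8.80 and 12.3 FPKM in mutants and at 5.76 and 9.11 FPKM in wild types, and Sv2a at 4.09 and 4.39 FPKM in mutants and at 3.81 and 4.78 FPKM in wild types.

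For most members, as for most genes, the larger of the differences within a group exceeded the difference between the group means. This was so for 70 of the 79 (88.6%, against 80.2% of all genes tested). The larger of 2 gaps between single libraries was set against a difference of averages, so a high share is built into this measure. In 24 members the order from high to low was mutant 2, wild type 2, mutant 1 and wild type 1 (30.4%, against 13.2% of all genes), and 17 of these are in the synaptic core list. Within each group the same library was the higher for the synaptic core, with a median gap of 0.50 on the log2 scale between the mutants and 0.35 between the wild types, while for general traffic the gaps were -0.04 and 0.04. The summed FPKM of the 81 members was 2328 and 2939 in mutants and 2165 and 2505 in wild types, or 0.37% and 0.428% of all FPKM in mutants and 0.349% and 0.372% in wild types.

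The levels of neurons and of other tissues also differed between libraries. The 20 pan-neuronal genes summed to 5578 and 9041 FPKM in mutants and 5161 and 7135 FPKM in wild types, 18 of 20 had a log2 difference above 0 with a median of 0.22, and 1 (Tubb3) was without overlap. Their sum had the order of libraries seen in the 24 members. Of 15 listed skeletal muscle markers 13 were in the table, and Myh7 and Ttn were not. These 13 summed to 169.7 and 5763 FPKM in mutants and 390.4 and 2920 FPKM in wild types. The 9 adipocyte markers summed to 283 and 2428 FPKM in mutants and 489 and 815 FPKM in wild types. Both sums were highest in mutant 2 and lowest in mutant 1. The 15 Schwann cell and myelin markers summed to 10688 and 22142 FPKM in mutants and 10788 and 8680 FPKM in wild types, and the 10 fibroblast and meninges markers to 6958 and 3892 FPKM in mutants and 7084 and 5597 FPKM in wild types. The fibroblast sum had the reverse order of libraries, and the myelin sum stood apart in mutant 2. Of 8 spinal cord markers, Mog, Chat, Olig2 and Slc1a2 are not among the genes listed. Gfap overlapped, at 3.74 and 4.04 FPKM in mutants and 2.47 and 6.10 FPKM in wild types. Higher in both mutants were Slc17a7 (20.7 and 28.8 FPKM, against 17.5 and 18.5 FPKM) and Aqp4 (1.10 and 1.15 FPKM, against 0.898 and 1.03 FPKM). Hoxb8 was lower in both, at 9.43 and 7.67 FPKM, against 12.3 and 10.7 FPKM in wild types. Slc17a7 is also counted below among the further release genes, so it is not a marker of spinal cord alone. No marker of these tissues that was in the table was at 0 in any library, which says nothing of the markers absent from it. The part of these tissues in the members' values was not tested, and in bulk RNA fewer cells of a type and less RNA per cell cannot be told apart.

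**Figure D3:**
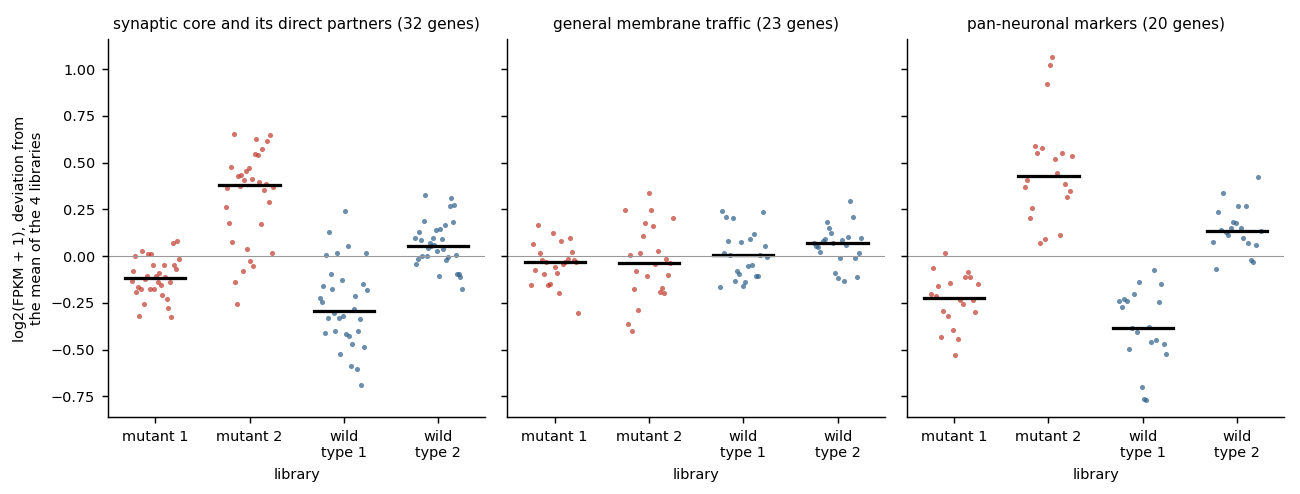
Deviation of log2(FPKM + 1) from the mean of the 4 libraries, for each gene of the synaptic core list (32 genes), of the general traffic list (23 genes) and of the pan-neuronal markers (20 genes); points are genes and black bars medians. The medians of the synaptic core and of the pan-neuronal genes are highest in mutant 2 and lowest in wild type 1, while the medians of general traffic stay near 0 in all 4 libraries.

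Some members were also set against the summed pan-neuronal genes of the same library. Snap25 equalled 5.28% and 4.61% of that sum in mutants and 5.03% and 4.63% in wild types, and Syp 1.54% and 1.49% in mutants and 1.504% and 1.39% in wild types. Vamp2 varied more, at 2.72% and 1.61% in mutants and 2.81% and 1.86% in wild types. Of 8 members set against that sum, Cplx1 was higher in both mutants, at 2.45% and 2.46% in mutants, against 2.18% and 2.19% in wild types. Syn1 was also higher, at 0.874% and 0.816% in mutants, against 0.698% and 0.695% in wild types. Syt12 was lower, at 0.0673% and 0.0451% in mutants, against 0.110% and 0.125% in wild types. When every library was shifted on the log2 scale by its median deviation over the pan-neuronal list, the median of all genes moved to -0.23 and that of the synaptic core to 0.03, with 18 of its 32 genes above 0. Of all genes 1931 were then above 0 and 12109 below, where it was 6891 and 7149 before the shift. Among all members 25 were then above 0 and 54 below, where it was 44 and 35 before the shift.

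Of 60 further listed genes of docking, transport and vesicle recycling, 52 were in the table and tested, 38 with a difference above 0 and 14 below, and a median of 0.14. In 8 both mutants were above both wild types and in 7 below, against 12.5% and 19.6% of all genes, and 0 passed an adjusted p of 0.05 in limma. At an unadjusted p under 0.05 in limma there was 1 gene higher and 0 lower, against 1.35% of all genes higher and 3.01% lower. This gene was Prrt1, which encodes a membrane protein of glutamatergic synapses. It stood at 4.85 and 4.39 FPKM in mutants, against 3.33 and 2.72 FPKM in wild types. The most abundant were Clta, the clathrin light chain A gene, at 261 and 380.2 FPKM in mutants and 262 and 373 FPKM in wild types, Tprgl at 201 and 239.8 FPKM in mutants and 204 and 226 FPKM in wild types, and Cltb at 155 and 232 FPKM in mutants and 151 and 183 FPKM in wild types. Of the calcium channel genes of release, 8 of 10 were tested with a median of 0.12 and none without overlap. Cacnb3 stood at 41.7 and 65.3 FPKM in mutants and 33.0 and 43.3 FPKM in wild types, Cacnb1 at 8.54 and 15.4 FPKM in mutants and 8.503 and 11.7 FPKM in wild types, and Cacna2d1 at 7.58 and 9.06 FPKM in mutants and 7.46 and 10.4 FPKM in wild types.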

How the data were processed

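The authors deposited FPKM values per gene for the 4 libraries, and a table of genes that differ, with group FPKM, log2 fold change, p-value and q-value in the columns of Cuffdiff, per the file headers. The submitters' processing notes name build mm10, Cufflinks 2.2.1, TopHat2 2.1.2 and CASAVA. The sources used here give neither strandedness nor how libraries were scaled. Depth is unknown, so no counting interval is given.

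Genes whose average reached 1 FPKM in at least 1 of the groups were tested as mutant minus wild type on log2(FPKM + 1), using limma 3.58.1 (R 4.3.3) with a variance prior that follows expression and Benjamini-Hochberg adjustment over 14040 genes. The log2 scale with a pseudocount understates changes of low genes. There were 2 residual degrees of freedom and 3.44 borrowed ones. The labels do not say that samples came from separate animals, so the p-values refer to the spread among these samples and that spread may be technical. Gene coordinates are from GENCODE M21 (GRCm38, as mm10).

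Members and lists were chosen with earlier results of these data known. Values in every library are given for the 3 highest members of each family, for Syp and Nsf and for members with an unadjusted p under 0.05; from the other pathway lists, the 3 highest and those with an unadjusted p under 0.05. Snap23, Snap29, Stx1a, Stxbp4, Syt1, Syt2, Syt3, Syt9 and Vamp3 were added after their values were seen. Alternatives were other scalings, pseudocounts and filters, a replicate block and leaving out each library. Some members are counted but not reported by name here.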

Additional observations from a re-analysis of the deposited data

How the results depend on the processing

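None of the release machinery members passed an adjusted p of 0.05 in limma in any alternative run. Same-numbered samples share only a number in the labels; their deviations correlated at r = 0.481 over 14040 genes and 0.701 over the 79 tested members. With the replicate block 61 of all genes passed. There 14 members in place of 2 had an unadjusted p under 0.05 in limma, beside 1474 of all 14040 genes in place of 612. Prdm12 passed under the replicate block (adjusted p = 0.0250) and after the shift by the pan-neuronal list (adjusted p = 0.0101). After that shift 25 of all genes passed, the median log2 difference of the members was -0.20 and that of general membrane traffic -0.29, by construction of the shift. With each library left out the number of all genes that passed ran from 0 to 5 (5 without wild type 1), the median of the members from -0.05 to 0.14 and that of general membrane traffic from -0.11 to -0.027. The members with an unadjusted p under 0.05 numbered 0 after the shift, beside 251 of all 14040 genes. They numbered 1 with no filter (611 of 14405 genes) and 1 with the 5 FPKM minimum (400 of 9772 genes). These counts are from fits with every library kept, and the count both rose and fell when single libraries were left out. Of 553 values of single genes under alternatives, 494 kept their direction and side of the threshold and 57 changed sign; where no construction is named, the cause was not tested. Log2 differences that changed sign after the shift were Nsf -0.10, Rab3d -0.049, Snap47 -0.13, Stx4a -0.20, Syt4 -0.0065, Syt9 -0.0080, Vamp2 -0.13, Vamp8 -0.22, Cacnb1 -0.036, Clta -0.21, Cltb -0.038 and Tprgl -0.19. Rescaling by median ratios gave Stx7 5.9e-06 and Sv2a 0.0019, and quantile normalization gave Sv2a 0.028, Clta -0.059 and Tprgl -0.034. With 1 library left out, so that the lone sample was assumed to vary like the other group, signs changed for Cacna2d1 (-0.30 to 0.14), Cacnb1 (-0.20 to 0.58), Clta (-0.26 to 0.28), Cltb (-0.10 to 0.48), Nsf (-0.068 to 0.33), Rab3c (-0.053 to 0.62), Rims3 (-0.16 to 0.82), Snap47 (-0.11 to 0.29), Stx12 (-0.17 to 0.085), Stx4a (-0.13 to 0.19), Stx7 (-0.16 to 0.13), Stxbp6 (-0.52 to 0.051), Sv2a (-0.14 to 0.12), Sv2b (-0.062 to 0.53), Syp (-0.033 to 0.61), Syt1 (-0.16 to 0.75), Syt11 (-0.062 to 0.70), Syt5 (-0.30 to 0.18), Syt9 (-0.073 to 0.51), Tprgl (-0.10 to 0.16), Unc13a (-0.0081 to 0.55), Unc13b (-0.31 to 0.041), Vamp3 (-0.30 to 0.049) and Vamp8 (-0.015 to 0.025). With 2 samples a group and unknown depth, precision is limited by the spread within groups.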
